A study of Mus musculus with 102 samples.

Results

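The potassium channel genes comprised 82 of the 18193 genes that a probe set of the array names alone. They were taken by symbol: every gene whose symbol begins with Kcn, apart from *Kcnj13* and *Kcne2*. Of the 82 genes, 79 encode pore-forming or accessory subunits and 3 are non-coding transcripts (*Kcnq1ot1*, *Kcnmb4os1* and *Kcnmb4os2*). A single probe set names 36 of them and several probe sets name 46, and where there were several the one with the highest mean was used, so that each gene has 1 value per array.

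Expression was measured on 102 Affymetrix microarrays in adult male Balb/c mice aged 7 to 8 weeks. No genetic change or drug is given for any group, and the animals were kept in light/dark cycles or in constant darkness during sampling. Tissue from 51 regions of the central nervous system was punched from slices with a needle of 0.5 mm, RNA from 6 time points spaced 4 h apart was pooled over many mice, and each region has 2 such pools, each on its own array. The results below rest on the 96 arrays of the 48 regions other than retina, pituitary and pineal, and a replicate is a pool, not a mouse. Values are log2 expression levels, on which a difference of 1 is a doubling. They compare regions for 1 probe set, not different genes.

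The 48 regions were described singly and in 8 groups. These were the cerebral cortex (4 regions), striatum (3), hippocampus (4), thalamus with the habenula (6), hypothalamus (12), mesencephalon (6), cerebellar cortex (2) and spinal cord (2). The remaining 9 regions entered as comparison regions only. A punch holds neurons, glia and vessels in proportions that vary between regions, and in such bulk RNA fewer cells of a type and less RNA per cell cannot be told apart. Defining markers were looked up for some of the regions. *Prox1* was highest in the dentate gyrus (DG), *Gpr151* in the habenula (Hb), *Vip* in the suprachiasmatic nucleus (SCN), *Avp* in the supraoptic nucleus (SO), *Gbx2* in the mediodorsal thalamus (MD) and *Hoxc8* in the anterior spinal cord. The lateral hypothalamus (LH) did not: its marker *Hcrt* was at 7.54 there, rank 12 of the 48 regions, and was highest in the dorsomedial hypothalamus (DM). *Nr5a1*, the marker of the ventromedial hypothalamus (VMH), was highest in the dorsal subparaventricular zone (SPa dorsal) and ranked 2 in VMH. The regions were collected in 4 sampling periods, and results that moved with the period are given with the value within it.

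Potassium channels let potassium ions leave the cell, or enter it where they rectify inwardly, and so set the resting potential, the shape and rate of action potentials and the response to transmitters. Among the 82 genes, the pore subunits of voltage-gated channels belong to the Kcna, Kcnc, Kcnd, Kcnq and Kcnh families, which form tetramers within a family. Silent subunits (Kcnf, Kcng, Kcns and Kcnv) form no channel alone but join others, and Kcnab, Kcnip and Kcne proteins bind to the pores and change their gating or trafficking. Calcium- or sodium-activated channels (Kcnma, Kcnn, Kcnt), inward rectifiers (Kcnj) and the background or leak channels with paired pore domains (Kcnk) complete the set.

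Promoter sequences are shown for 4 genes, the pair highest in the striatum and the pair highest in the cerebellar cortex among the 5 largest positive differences of each group that have a single start site in the table used (RefSeq sequence, build GRCm38.p6, 250 bases before to 50 after the start). They give the sequence context of genes whose striatal or cerebellar levels are described below. All 4 lie on the minus strand and are written 5′ to 3′ along the gene. Capitals mark matches on either strand to the GC box GGGCGG or to the TATA box TATAAA; the cAMP response element TGACGTCA and the E-box CACGTG were searched as well and did not occur in these windows.
*Kcna5*, chr6:126535506-126535805: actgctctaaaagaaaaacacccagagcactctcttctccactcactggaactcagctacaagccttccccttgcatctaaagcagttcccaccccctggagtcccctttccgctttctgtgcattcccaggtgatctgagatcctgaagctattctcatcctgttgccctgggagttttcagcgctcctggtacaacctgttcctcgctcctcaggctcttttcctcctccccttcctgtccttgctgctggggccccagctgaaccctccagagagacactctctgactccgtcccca
*Kcnip2*, chr19:45816014-45816313: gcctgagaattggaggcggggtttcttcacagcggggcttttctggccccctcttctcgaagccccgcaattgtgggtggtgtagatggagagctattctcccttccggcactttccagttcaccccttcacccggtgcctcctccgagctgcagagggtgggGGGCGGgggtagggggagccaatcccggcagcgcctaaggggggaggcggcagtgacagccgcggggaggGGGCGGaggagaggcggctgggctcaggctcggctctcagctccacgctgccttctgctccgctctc
*Kcng4*, chr8:119635631-119635930: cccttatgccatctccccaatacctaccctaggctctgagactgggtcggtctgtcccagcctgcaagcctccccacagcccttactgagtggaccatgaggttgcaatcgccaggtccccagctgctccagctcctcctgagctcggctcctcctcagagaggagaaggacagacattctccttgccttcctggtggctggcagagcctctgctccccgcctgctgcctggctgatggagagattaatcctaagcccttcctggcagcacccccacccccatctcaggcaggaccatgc
*Kcnj9*, chr1:172329273-172329572: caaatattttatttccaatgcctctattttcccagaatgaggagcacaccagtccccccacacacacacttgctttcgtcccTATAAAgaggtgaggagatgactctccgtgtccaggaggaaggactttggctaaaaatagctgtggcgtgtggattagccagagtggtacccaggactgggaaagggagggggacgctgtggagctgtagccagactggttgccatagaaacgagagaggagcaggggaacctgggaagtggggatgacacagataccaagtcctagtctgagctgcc
The *Kcnip2* window held 2 GC boxes, the *Kcnj9* window 1 TATA box and the other two neither. Of the further genes chosen by the same rule, *Kcnj4* (striatum) held 4 GC boxes and *Kcnj12* (cerebellar cortex) none of the 4 motifs. The table listed 86 promoters for 62 of the potassium channel genes. A GC box occurred in 48.8% of these and in 35.7% of all 32851 promoters, a TATA box in 4.65% against 13.6%, an E-box in 6.98% against 7.15%, and the cAMP response element in 0 of 86 against 1.79%. Their median GC content was 58.3%, and that of all promoters 52.7%. No motif contains another, and a match describes the letters only.

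Potassium channel genes varied widely between regions. The difference between the highest and the lowest regional mean, called the range below, had a median of 2.17 over the 82 genes and of 0.952 over all 18193 genes. Among genes that reached a mean of 7 or more in some region, the medians were 2.37 for 74 potassium channel genes and 1.13 for all genes. For voltage-gated sodium and calcium channel genes the median was 2.67 over all 35 and 3.04 over the 30 that reached such a mean. A range over 2 was found for 44 of the 82 genes (53.7%, against 16.6% of all genes), a range over 4 for 10, and a range over 1 for 63.

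The F test of limma across the 48 regions called 80 of the 82 genes. Nearly every gene on the array passes this test (91.1% of all probe sets and 93.1% of genes), so the count says little about channels. The 2 that did not pass were *Kcne3* (adjusted p = 0.189) and *Kcnj1* (adjusted p = 0.0989). *Kcnj1* encodes the renal potassium secretory channel. With both arrays of 1 region above all other arrays, 22 genes had a highest region that stood clear, a share close to that of all genes (26.2%).

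**Figure D1:**
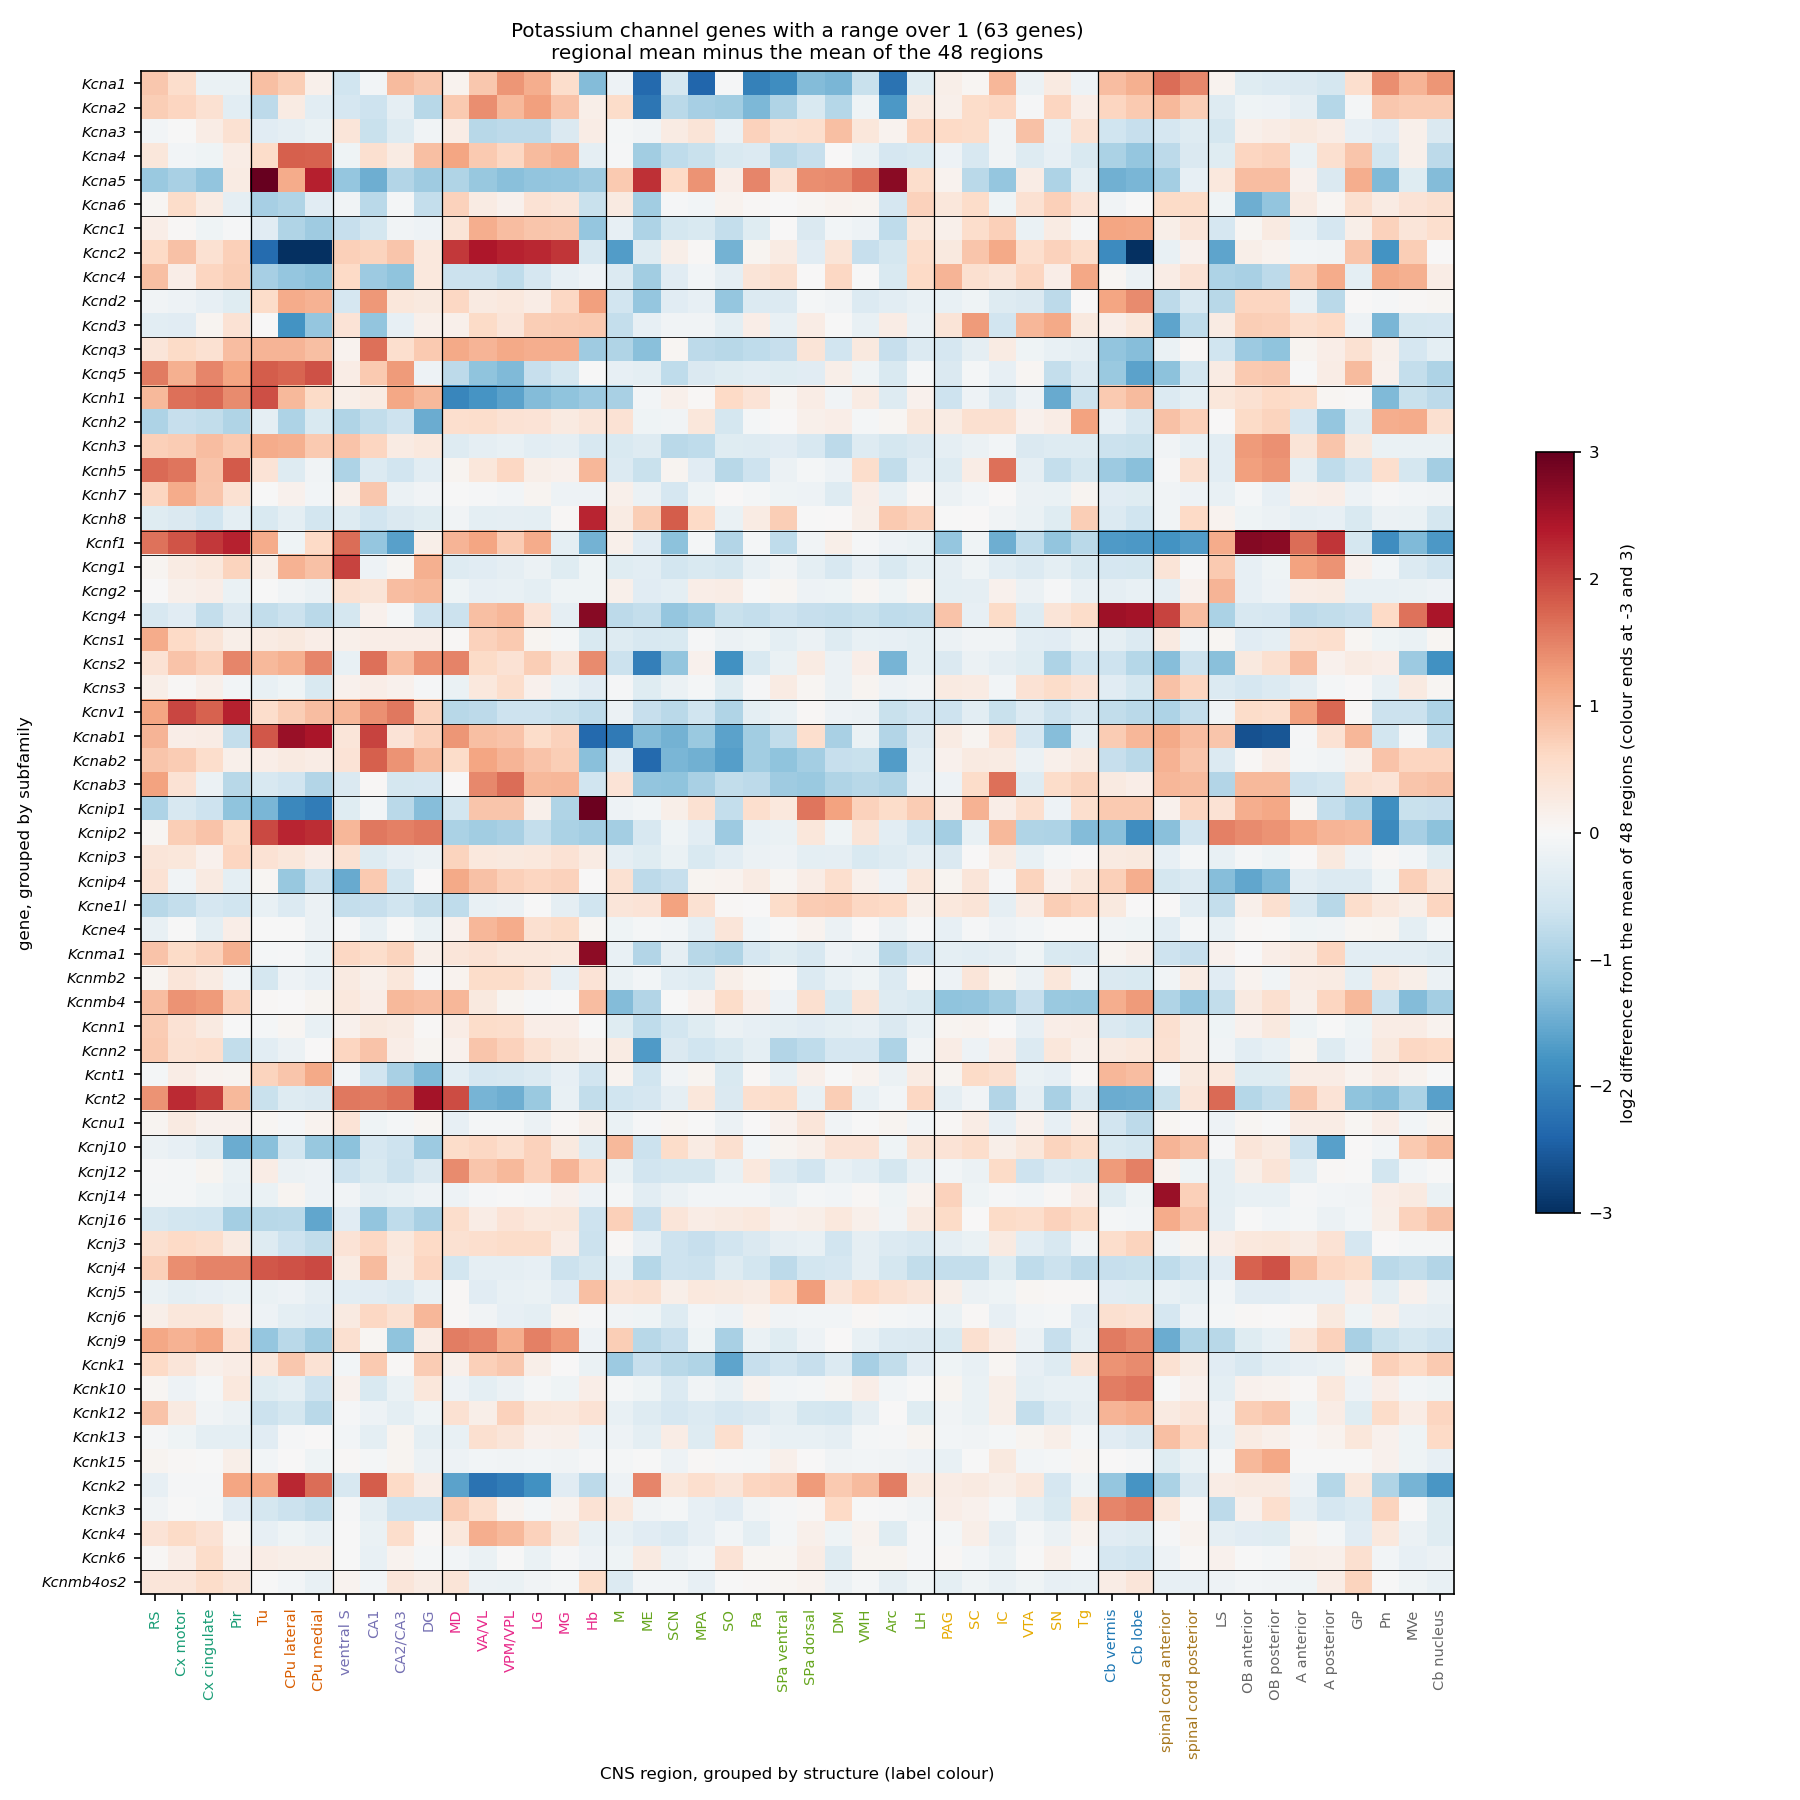
Regional means of the 63 potassium channel genes with a range over 1 in 48 regions, as the difference from each gene's own mean on the log2 scale (colour from -3 to 3; each cell is the mean of 2 arrays). Genes are ordered by subfamily and regions by anatomical group; the striatal columns are low in *Kcnc2* and high in *Kcnab1* and *Kcnip2*, and most hypothalamic columns are low in the 3 Kcnab genes.

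Numbers of genes above and below the remaining regions differed between the 8 groups. In the cerebral cortex 42 of the 82 genes were higher and 13 lower (all genes: 19.9% higher, 27.8% lower), and in the thalamus 38 were higher and 20 lower (all genes: 21.0% and 26.9%). The hypothalamus had the opposite balance, with 13 higher and 46 lower (all genes: 33.0% and 30.5%). In the hippocampus 31 were higher and 27 lower (20.2% and 30.1% of all genes), and in the striatum 26 and 29 (22.2% and 30.1%). In the mesencephalon 21 were higher and 31 lower (22.2% and 16.8%). In the cerebellar cortex 26 were higher and 43 lower (24.6% and 40.6%), and in the spinal cord 26 and 25 (22.5% and 21.5%).

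Cell type markers moved with these groups too. In the cerebral cortex 9 of 10 pan-neuronal markers were higher, and all 11 measured oligodendrocyte and 9 of 12 astrocyte markers were lower. In the thalamus all 11 oligodendrocyte and 7 of 10 neuronal markers were higher, and 8 of 10 microglial and all 10 leptomeningeal markers were lower. Their part in the channel counts was not tested.

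Within the hypothalamus the median eminence (ME), where axon terminals and glia border the portal vessels, had 8 genes higher and 44 lower (all genes: 25.2% and 21.2%), and SCN, the site of the circadian clock, had 9 higher and 45 lower (27.2% and 31.3%). Among the 63 genes with a range over 1, the cerebellar lobe (Cb lobe) was the lowest region for 10, ME for 7 and SCN for 5. Markers of other cells moved with the hypothalamus. Of 10 pan-neuronal markers, 7 were lower there and 2 higher (median difference -0.46), with a mean level per region, relative to all regions, from -1.20 in ME to 0.26, against -0.36 to 0.53 elsewhere. All 11 measured oligodendrocyte markers were lower, all 8 ependymal markers were higher, 6 of 9 endothelial markers were lower and 1 higher, 6 of 10 mural markers were higher and 2 lower, and 9 of 10 leptomeningeal markers were higher, with the highest values in SO (2.62) and ME (2.17). SCN differed from the group in its glial markers, with regional means of 1.63 for the oligodendrocyte and 0.90 for the astrocyte list. SO was alike in this, at 1.52 and 0.61, and had 15 genes higher and 35 lower (all genes: 23.3% and 24.4%). The part of these markers in the low channel levels was not tested.

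**Figure D2:**
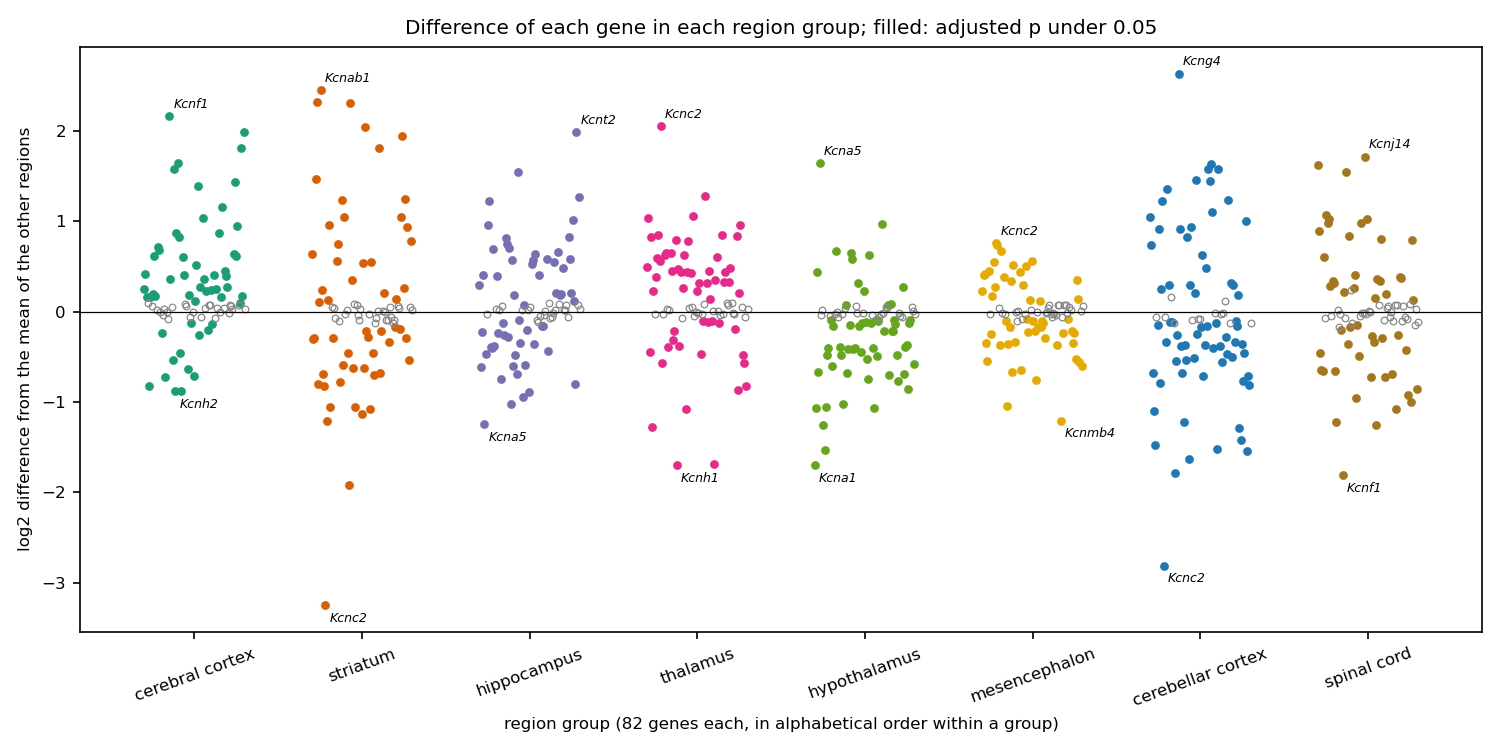
Difference of each of the 82 potassium channel genes between a region group and the mean of the remaining regions (log2 scale, 1 point per gene; filled points passed limma at an adjusted p of 0.05, open points did not). The lowest point is *Kcnc2* in the striatum at -3.25 and the highest *Kcng4* in the cerebellar cortex at 2.63, and most filled points of the hypothalamus lie below 0.

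Among the voltage-gated pores, the Kcnc family, whose rapidly opening and closing channels allow high firing rates, gave the widest range of the set. *Kcnc2* ran from 5.93 to 7.69 on the 6 striatal arrays (median 6.44) and from 6.10 to 12.12 on the other arrays (median 9.90). The striatum lay almost wholly below, overlapping only the low end of the other regions. It was 9.49-fold lower in the striatum (difference -3.25, SE 0.09, adjusted p = 1.44e-36). The 4 cerebellar cortex arrays read 7.96 and 7.56 in the vermis and 6.19 and 6.10 in the lobe. The group difference was -2.81 (SE 0.11, adjusted p = 2.08e-29). The lobe had the lowest regional mean of all (6.14), just below the medial caudate putamen (6.20). In contrast, the 12 thalamic arrays ran from 8.95 to 12.12 (median 11.84), against 5.93 to 11.06 (median 9.83) elsewhere, and the difference was 2.05 (SE 0.07, adjusted p = 3.20e-33). The low end of the thalamus was Hb, at 8.95 and 9.38.

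The other 2 genes of the family were lower in the striatum too. *Kcnc1* ran from 9.83 to 10.78 there (median 10.06) and from 9.74 to 12.18 elsewhere (median 10.97), a difference of -0.82 (SE 0.06, adjusted p = 5.63e-17). *Kcnc4* ran from 8.24 to 8.79 against 8.32 to 10.99, a difference of -1.21 (SE 0.07, adjusted p = 1.74e-23). Both overlapped with other regions at the low end. All 3 genes were higher in the mesencephalon (22.2% of all genes were), *Kcnc2* by 0.76 and *Kcnc4* by 0.74. In the cerebellar cortex the family split. *Kcnc1* read 12.06 to 12.18 on the 4 arrays and was higher by 1.22 (SE 0.08, adjusted p = 1.33e-20). The vermis was its highest region. By contrast, *Kcnc2* was lower there by -2.81. Over the 48 regional means the 2 genes correlated with r = 0.37. Of 3 other *Kcnc1* probe sets, 1 followed the one used (r = 0.93) and 2 did not (r = 0.33 and 0.02).

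Kcna channels are low-threshold channels, much of them on axons, and 5 of the 7 genes had a range over 2. *Kcna1* read 12.60 and 12.60 in the anterior and 12.53 and 12.20 in the posterior spinal cord, its highest regions, against 8.32 to 12.48 elsewhere (median 10.95). The difference was 1.62 (SE 0.10, adjusted p = 1.84e-21). The lowest region was the medial preoptic area (MPA), at 8.78 and 8.32. Over the hypothalamus it ran from 8.32 to 10.97 (median 9.61), against 9.60 to 12.60 elsewhere (median 11.38), and it was 3.24-fold lower (adjusted p = 8.29e-39).

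*Kcna2*, which joins *Kcna1* in axonal channels, was lower in the hypothalamus as well (7.82 to 11.0, median 9.27, against 9.19 to 11.78, median 10.47; difference -1.07, SE 0.04, adjusted p = 1.09e-29). It was highest in the ventral anterior and ventrolateral thalamus (VA/VL), and higher over the thalamus by 1.03 (SE 0.06). Another probe set of the gene followed the one used (r = 0.96) but put the anterior spinal cord first. In ME *Kcna2* read 8.06 and 7.82, the lowest of all regions. The difference from the mean of the other 47 regions was -2.22 (-1.44 with the mean of the 4 probe sets of the gene). The spinal cord, where *Kcna1* was highest, also held the highest level of oligodendrocyte markers: all 11 were higher, by a median of 1.93, with regional means of 1.63 and 1.78 relative to all regions, against at most 1.63 elsewhere. The part of these markers in the *Kcna1* result was not tested.

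*Kcna5*, known best from heart and vascular muscle, was high in the striatum and the hypothalamus. The striatal arrays ran from 7.81 to 10.05 (median 9.18) and the other arrays from 5.20 to 9.57 (median 6.49). Within the striatum the olfactory tubercle (Tu) read 9.76 and 10.05, the medial caudate putamen (CPu medial) 9.24 and 9.11, and the lateral one (CPu lateral) 7.81 and 8.10. The arrays of Tu lay above all others. The striatal difference was 2.31 (SE 0.09, adjusted p = 9.37e-30) and that of Tu alone 3.13 (SE 0.16, adjusted p = 2.38e-24). Over the hypothalamus it read 6.85 to 9.57 on 24 arrays (median 8.24) against 5.20 to 10.05 (median 5.93), a difference of 1.64 (SE 0.05, adjusted p = 8.43e-35). There it moved against *Kcna1* and *Kcna2*. The arcuate nucleus (Arc) was highest in the hypothalamus, at 9.53 and 9.57, and ME read 9.07 and 9.03. In the hippocampus (5.20 to 6.00) and thalamus (5.43 to 6.21) no array reached the lowest striatal or hypothalamic array.

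*Kcna4*, which gives a rapidly inactivating current, was highest in CPu lateral (10.13 and 10.54, against 7.37 to 10.37 elsewhere), with a difference of 1.83 (SE 0.10, adjusted p = 1.07e-23). It was higher over the striatum by 1.46 and lower in the cerebellar cortex by -1.10. *Kcna6* (range 2.16) was highest in the substantia nigra (SN) and lowest in the anterior olfactory bulb. *Kcna3* (range 1.72) was highest in DM. *Kcna7*, a muscle channel gene, was among the flattest of the set (range 0.39).

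**Figure D3:**
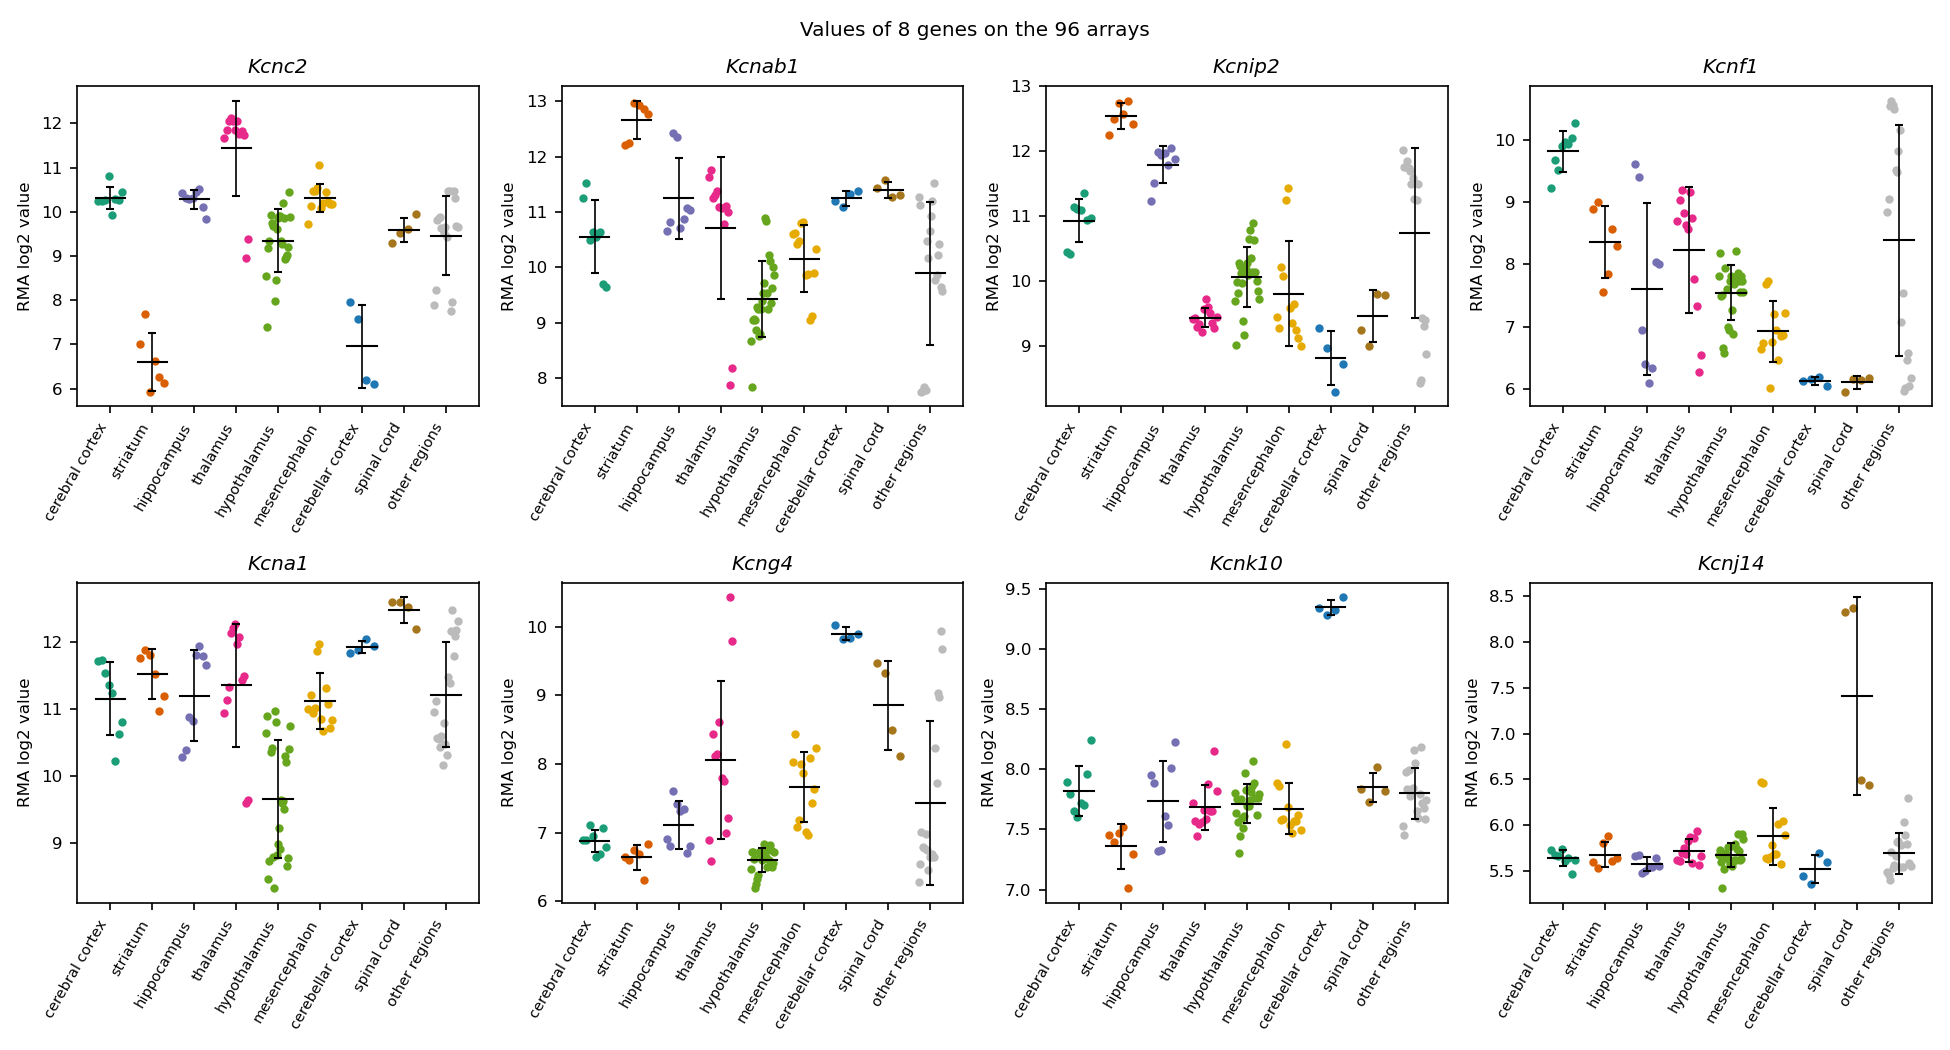
Log2 expression of 8 potassium channel genes on the 96 arrays by region group (points, 1 per array; horizontal line, mean; vertical bar, SD). The striatal arrays of *Kcnc2* are low and those of *Kcnip2* lie above all other arrays, and the high spinal cord points of *Kcnj14* are the anterior cord at 8.33 and 8.37.

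Kcnd genes encode the A-type channels of dendrites, and their 2 main members were arranged differently. *Kcnd2* was highest in Cb lobe (12.34 and 12.44) and lowest in SO. The 4 cerebellar cortex arrays ran from 12.10 to 12.44 and the others from 9.76 to 12.30 (difference 1.36, SE 0.07, adjusted p = 1.93e-24). *Kcnd3* was highest in the superior colliculus (SC; 11.49 and 11.36) and lowest in CPu lateral (8.26 and 8.46). In the striatum *Kcnd2* was higher by 0.96 (SE 0.06, adjusted p = 1.50e-21), and *Kcnd3* lower by -1.05 (SE 0.07, adjusted p = 8.78e-21). Over 48 regions their levels correlated with r = -0.04. *Kcnd3* was also higher in the mesencephalon (0.67) and lower in the spinal cord (-1.22), with 0.41 and -0.77 for the mean of its 4 probe sets. All 3 genes were lower in the hypothalamus (30.5% of all genes were), *Kcnd1* (range 0.78) least. Another *Kcnd2* probe set followed the one used (r = 0.98) but had CA1 of the hippocampus as its highest region, so the order of the top 2 regions, Cb lobe and CA1, is not settled.

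Kcnq channels carry the M-current, a slow current that transmitters shut. *Kcnq5* ran from 9.84 to 10.25 in the striatum (median 10.16), against 6.66 to 10.34 elsewhere (median 8.01). The striatal arrays lay at the top, overlapping with few others. It was 3.85-fold higher in the striatum (difference 1.95, SE 0.09, adjusted p = 2.71e-26). In the cerebellar cortex it read 7.16 and 7.18 in the vermis and 6.67 and 6.66 in the lobe, a difference of -1.42 (SE 0.11, adjusted p = 1.07e-16). *Kcnq3*, the usual partner in this current, was highest in CA1 (12.19 and 12.11) and likewise lower in the cerebellar cortex, where the 4 arrays ran from 9.15 to 9.42 against 9.19 to 12.19 elsewhere (difference -1.28, SE 0.06, adjusted p = 8.64e-26). *Kcnq1*, the cardiac and epithelial channel, varied little (range 0.70), and with it all 3 genes were lower in the cerebellar cortex (40.6% of all genes were).

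Kcnh genes form the ether-a-go-go, erg and elk groups. *Kcnh1*, an ether-a-go-go channel, ran from 6.93 to 8.14 on the thalamic arrays (median 7.4) and from 7.36 to 11.0 elsewhere (median 9.16), a difference of -1.70 (SE 0.05, adjusted p = 4.83e-37). MD was its lowest region, at 6.93 and 7.14. In the cerebral cortex it ran from 9.80 to 10.85 and was higher by 1.57 (SE 0.06, adjusted p = 1.95e-31). *Kcnh5*, of the same group, was higher in the cerebral cortex by 1.64 (6.43 to 7.70, against 4.38 to 7.76), with the piriform cortex (Pir) highest at 7.45 and 7.64.

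*Kcnh2*, an erg channel, was highest in the dorsal tegmental nucleus (Tg; 10.36 and 10.72) and lowest in DG (7.98 and 7.73). In the cerebral cortex it was lower by -0.88 (8.38 to 8.71, against 7.73 to 10.72; SE 0.04, adjusted p = 1.08e-27) and in the hippocampus by -1.02. *Kcnh7*, the other erg gene among the 82, was highest in the motor cortex (Cx motor, range 1.61).

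Of the elk genes, *Kcnh3* was highest in the olfactory bulb (range 2.18) and higher in the striatum by 1.05 (SE 0.05), and *Kcnh8* was highest in Hb (9.14 and 8.73) and next in SCN (8.52 and 8.42), with a median of 6.48 over the arrays outside Hb. The next region, Arc, had a mean of 7.44. The Hb difference was 2.34 (SE 0.10, adjusted p = 2.16e-28). Of the 6 Kcnh genes, 5 were lower in the cerebellar cortex and 4 higher in the cerebral cortex (all genes: 40.6% and 19.9%).

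Several of the silent subunit genes had their highest levels in the forebrain. *Kcnf1* read 10.55 and 10.64 in the anterior olfactory bulb, 10.57 and 10.51 in the posterior one and 10.03 and 10.27 in Pir. Over the cerebral cortex it ran from 9.23 to 10.27 (median 9.92), against 5.95 to 10.64 elsewhere (median 7.58), and was 4.47-fold higher (difference 2.16, SE 0.07, adjusted p = 1.85e-33). Outside the cortex, olfactory bulb arrays were the highest. *Kcnf1* was at its lowest in the pontine nucleus (Pn; 5.96 and 6.01), and low in the spinal cord (5.95 to 6.18, difference -1.81) and cerebellar cortex (6.04 to 6.20, difference -1.78). The mean of its 2 probe sets gave -1.10 and -1.18. Within the hippocampal group it read 9.61 and 9.41 in the ventral subiculum (ventral S), but 6.95 and 6.40 in CA1.

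*Kcnv1* ran from 8.79 to 10.15 in the cerebral cortex (median 9.71) and from 6.58 to 9.54 elsewhere (median 7.31). Its difference was 1.99 (SE 0.08, adjusted p = 3.54e-30), with Pir highest at 10.04 and 10.12, and the hippocampus followed with 1.26 (SE 0.08). *Kcng1* was highest in ventral S, at 8.18 and 8.17, against 5.45 to 7.49 elsewhere (median 5.91), a difference of 2.07 (SE 0.10, adjusted p = 4.25e-25), followed by the posterior and anterior amygdala. A second, dimmer probe set of *Kcng1* was flat (range 0.52, r = 0.28), and averaging both gave 1.11. *Kcns2* was highest in CA1 and lowest in ME (6.85 and 6.93, against 6.90 to 10.67 elsewhere; difference -2.10, SE 0.10, adjusted p = 4.35e-26, and -1.39 with the mean of its probe sets).

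All 3 Kcns genes were higher in the hippocampus and lower in both the hypothalamus and the cerebellar cortex (all genes: 20.2%, 30.5% and 40.6%). *Kcns1* (range 1.60) was highest in the retrosplenial cortex (RS), and *Kcns3* (range 1.40) in the anterior spinal cord. *Kcng2* (range 1.36) was highest in the lateral septum. *Kcnv2*, a photoreceptor subunit, stayed dim (range 0.62, below 7 in all regions).

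*Kcng4* had its highest levels in Hb, the cerebellar cortex and the cerebellar nucleus, followed by the anterior spinal cord. It read 10.03 and 9.82 in the vermis and 9.84 and 9.90 in the lobe, against 6.19 to 10.43 elsewhere (median 6.83). Hb, at 10.43 and 9.79, the cerebellar nucleus, at 9.95 and 9.68, and the anterior spinal cord, at 9.47 and 9.33, made up the upper end of the other regions. The cerebellar cortex was 6.20-fold higher (difference 2.63, SE 0.09, adjusted p = 3.28e-32), and the spinal cord higher by 1.54 (SE 0.09, adjusted p = 4.00e-21), with 8.49 and 8.12 in its posterior part.

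Among the accessory subunits, *Kcnab1*, a beta subunit that inactivates Kcna channels, ran from 12.22 to 12.97 in the striatum (median 12.81) and from 7.75 to 12.43 elsewhere (median 10.48). Only CA1, at 12.43 and 12.36, entered the striatal range. It was 5.46-fold higher in the striatum (difference 2.45, SE 0.06, adjusted p = 4.53e-40). At the other end stood the olfactory bulb, with 7.75 and 7.77 in the anterior and 7.84 and 7.79 in the posterior part, and Hb with 7.88 and 8.19. The difference of the anterior olfactory bulb was -2.67 (SE 0.10, adjusted p = 8.32e-30).

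*Kcnab2* was highest in CA1, was higher in the hippocampus by 1.23 (10.87 to 12.49, against 8.18 to 11.80; adjusted p = 4.47e-32) and was lowest in ME (8.18 and 8.31, against 8.80 to 12.49). *Kcnab3* was highest in the ventral posterior thalamus (VPM/VPL) and higher over the thalamus by 0.85. The 3 genes were lower together in the hypothalamus (30.5% of all genes were lower), *Kcnab1* by -1.26, *Kcnab2* by -1.53 and *Kcnab3* by -1.06. For *Kcnab2* the 24 hypothalamic arrays ran from 8.18 to 10.42 (median 9.39) and the others from 9.22 to 12.49 (median 10.87; SE of the difference 0.03, adjusted p = 2.53e-46). All 3 were higher in the cerebral cortex, thalamus and spinal cord (all genes: 19.9%, 21.0% and 22.5%). *Kcnab2* correlated with the pan-neuronal markers across the 48 regions (r = 0.71).

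Kcnip proteins bind Kcnd channels and calcium. *Kcnip2* ran from 12.24 to 12.78 in the striatum (median 12.54) and from 8.30 to 12.04 elsewhere (median 10.09). It was the 1 gene of the 82 whose 6 striatal arrays lay beyond all other arrays (0.973% of all genes did so, in either direction). The difference was 2.31 (SE 0.07, adjusted p = 1.09e-36), a 4.96-fold higher level. The hippocampus came next with 11.23 to 12.04 and a difference of 1.55 (SE 0.06), while the cerebellar cortex was lower by -1.63 (SE 0.08). The mesencephalon was lower by -0.65 (SE 0.05), or by -0.38 against regions of its own sampling period.

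*Kcnip1* had its highest and lowest regions elsewhere. It read 12.16 and 11.98 in Hb, above the 6.94 to 10.75 of all other arrays (median 9.22), and the difference was 3.0 (SE 0.12, adjusted p = 1.11e-29). In the striatum it ran from 6.94 to 7.90 (median 7.28), against 7.17 to 12.16 elsewhere (median 9.31), and was 3.79-fold lower (difference -1.92, SE 0.07, adjusted p = 2.87e-32). The correlation of *Kcnip1* and *Kcnip2* over 48 regions was -0.32. Of 3 other *Kcnip1* probe sets, 2 also had Hb as the highest region and 1 was flat, and with the mean of all 4 the differences were 1.87 in Hb and -0.85 in the striatum. *Kcnip4* was highest in MD (range 2.70) and higher in the cerebellar cortex by 0.94, and *Kcnip3* had a range of 1.13. Both other probe sets of *Kcnip4* put Cb lobe first.

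Markers of ventricular cells were raised in Hb, where *Kcnip1*, *Kcnma1*, *Kcnh8* and *Kcng4* were highest. The choroid plexus list was at 1.34 relative to all regions (2.20 in CA2/CA3) and the ependymal list at 1.17 (0.49 in CA2/CA3). The ependymal list was higher than in Hb in MPA (2.09), SPa dorsal (1.62), the ventral subparaventricular zone (1.40) and the paraventricular nucleus (1.31). In CA2/CA3 *Kcnip1* had a mean of 8.32, *Kcnma1* of 10.71, *Kcnh8* of 6.21 and *Kcng4* of 7.32. In the same order the means were 9.58, 9.20, 7.25 and 6.35 in MPA. In SPa dorsal, the second highest region of *Kcnip1*, they were 10.73, 9.55, 6.63 and 6.68. The part of these markers in the Hb results was not tested.

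The single-pass Kcne subunits varied little except for *Kcne1l*, which was highest in SCN (8.86 and 8.96, against 6.78 to 8.80 elsewhere) and higher over the hypothalamus by 0.67 (SE 0.03, adjusted p = 1.38e-25). *Kcne4* was highest in VPM/VPL (range 1.43). *Kcne1* (range 0.40) and *Kcne3* (range 0.30) were flat, and *Kcne3* stayed below 7. The call of *Kcne1* in the F test (adjusted p = 0.0405) was lost under 3 other treatments of the data.

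**Figure D4:**
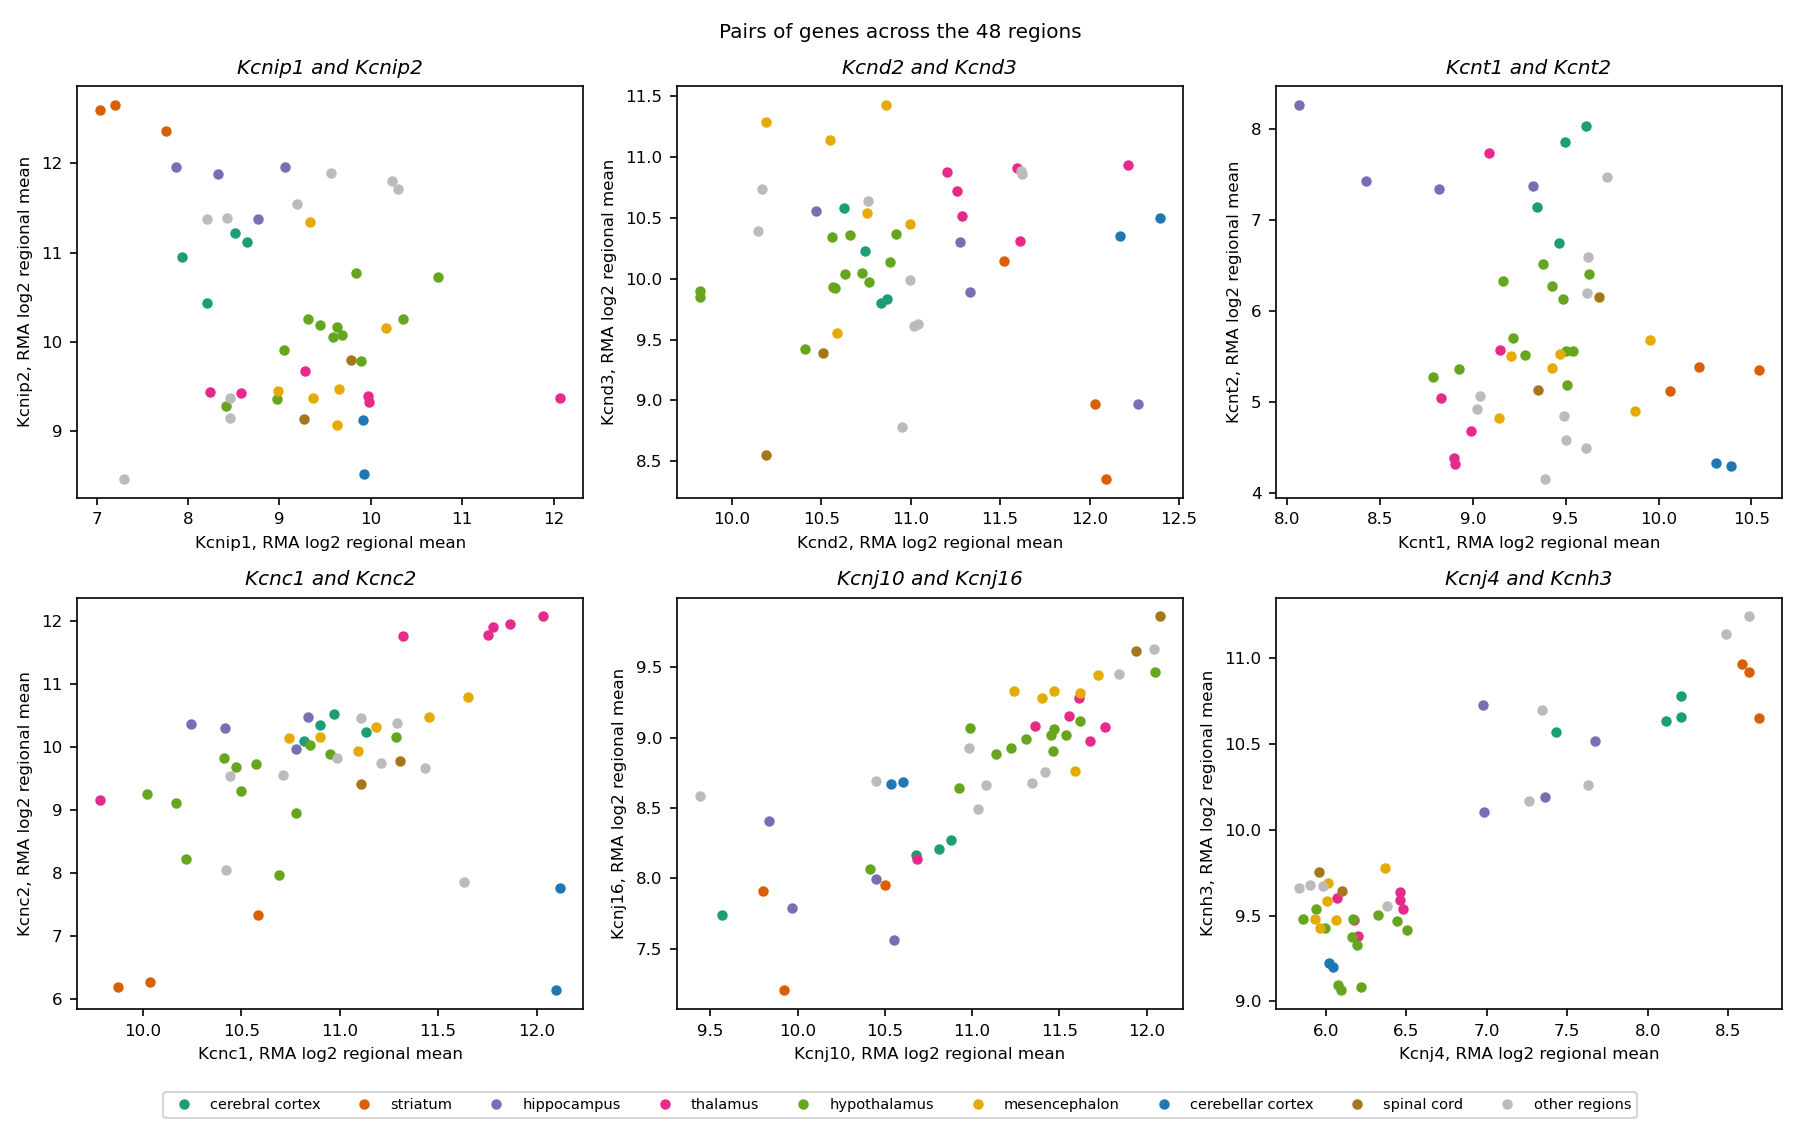
Regional means of 6 pairs of potassium channel genes in 48 regions (log2 scale on both axes, 1 point per region, coloured by region group; r is Pearson's correlation, a description over regions). The upper pairs with r near or below 0 (*Kcnip1* and *Kcnip2*, *Kcnd2* and *Kcnd3*, *Kcnt1* and *Kcnt2*) separate the regions along different axes, whereas *Kcnj10* and *Kcnj16* (r = 0.84) and *Kcnj4* and *Kcnh3* (r = 0.92) rise together.

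Calcium- and sodium-activated channels were led by *Kcnma1*, the pore of the large-conductance BK channel. It read 12.79 and 12.67 in Hb and ran from 8.85 to 11.19 on all other arrays (median 9.92). The next region, Pir, had a mean of 11.11. The Hb difference was 2.75 (SE 0.15, adjusted p = 5.06e-23), and all 4 other probe sets of the gene also had Hb as the highest region. Of its beta subunits, *Kcnmb4* was highest in Cx motor (10.73 and 11.11), higher in the cerebral cortex by 1.15 (SE 0.06) and lower in the mesencephalon, where 12 arrays ran from 8.20 to 8.91 (median 8.42) against 8.02 to 11.11 elsewhere (median 9.78; difference -1.21, SE 0.05, adjusted p = 1.17e-28).

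In the cerebellar cortex *Kcnmb4* was higher by 1.23 (10.62 to 10.89 on the 4 arrays) and in the spinal cord lower by -1.08. In Hb, where the pore gene *Kcnma1* was highest, *Kcnmb4* had a mean of 10.51. *Kcnmb2* was highest in VA/VL (range 1.08), and *Kcnmb1*, the smooth muscle subunit, had a range of 0.95 and correlated with the ependymal markers (r = 0.75 over 48 regions).

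The small-conductance channel gene *Kcnn2* was highest in CA1 and lowest in ME, at 7.36 and 6.43, and was lower over the hypothalamus by -0.77 (SE 0.04, adjusted p = 6.61e-27). *Kcnn1* (range 1.52) was highest in RS and also lower in the hypothalamus (-0.48). *Kcnn3* had a range of 0.62, and *Kcnn4*, the intermediate-conductance channel of blood cells and epithelia, one of 0.45.

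The sodium-activated channels *Kcnt1* and *Kcnt2* were both higher in the cerebral cortex and both lower in the thalamus, yet not elsewhere alike (r = -0.25). *Kcnt2* read 8.41 and 8.13 in DG, its highest region, and ran from 7.19 to 8.41 over the hippocampus (median 7.47), against 4.13 to 8.34 elsewhere (median 5.46). It was 3.95-fold higher there (difference 1.98, SE 0.09, adjusted p = 5.25e-28). *Kcnt1* was lowest in that same DG, and lower over the hippocampus by -0.80 (7.99 to 9.33, against 8.77 to 10.64; SE 0.04, adjusted p = 2.63e-26). In the striatum and the cerebellar cortex the order turned: *Kcnt1* was higher there by 0.94 and 1.00, and *Kcnt2* lower in the cerebellar cortex by -1.54. In the cerebral cortex *Kcnt2* was higher by 1.81 and *Kcnt1* by 0.09 (adjusted p = 0.0389). *Kcnu1*, a sperm channel, stayed below 7 and was lower in the cerebellar cortex (5.44 to 5.87, against 5.89 to 6.88 elsewhere; difference -0.72).

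Among the inward rectifiers, the strongly rectifying *Kcnj4* ran from 8.48 to 8.77 in the striatum (median 8.65) and from 5.74 to 8.76 elsewhere (median 6.21). It was 4.12-fold higher (difference 2.04, SE 0.06, adjusted p = 2.64e-36), and outside the striatum the olfactory bulb (means 8.49 and 8.63) and the cingulate, piriform and motor cortex (8.21, 8.21 and 8.11) came next. *Kcnj14*, of the same group, was at 8.33 and 8.37 in the anterior spinal cord, where motor neurons lie, and at 6.5 and 6.44 in the posterior cord. Elsewhere it ran from 5.31 to 6.48 (median 5.66). The anterior cord thus stood alone, with a difference of 2.64 (SE 0.08, adjusted p = 4.12e-34). *Kcnj12* was higher in the cerebellar cortex (8.68, 8.14, 8.88 and 8.43, against 6.41 to 8.83 elsewhere; difference 1.46, SE 0.12, adjusted p = 2.80e-16) and in the thalamus (1.06). *Kcnj2* was below 7 throughout, with Tu highest (range 0.90).

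The subunits gated by G proteins differed in part in their highest regions, with *Kcnj9* and *Kcnj3* both highest in the cerebellar cortex on the probe sets used. *Kcnj9* read 10.61 and 10.81 in the vermis and 10.63 and 10.54 in the lobe, against 7.56 to 10.87 outside the cerebellar cortex (median 8.92), and it ran from 8.85 to 10.87 in the thalamus. It was higher by 1.57 in the cerebellar cortex (SE 0.08, adjusted p = 1.28e-24) and by 1.28 in the thalamus (SE 0.05, adjusted p = 1.31e-30), and lower by -1.25 in the spinal cord. With the mean of its 4 probe sets these differences were 0.90, 0.85 and -0.67. The vermis and MD were level, and 2 other probe sets of the gene put MD first. *Kcnj6* was highest in DG (range 1.5), *Kcnj5* in SPa dorsal (8.50 and 8.29, range 1.68) and *Kcnj3* in Cb lobe (range 1.42), although 3 other probe sets of *Kcnj3* put CA1 first. *Kcnj5* was higher over the hypothalamus by 0.63 (SE 0.03, adjusted p = 2.60e-28), or by 0.37 with the mean of its probe sets.

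*Kcnj10* and *Kcnj16* encode the subunits of the astrocyte channel that buffers extracellular potassium. *Kcnj10* read 12.06, 12.08, 11.86 and 12.02 in the spinal cord, against 9.41 to 12.16 elsewhere (median 11.12), and was higher by 0.99 (SE 0.07, adjusted p = 1.51e-18). *Kcnj16* read 9.78, 9.94, 9.50 and 9.72, against 7.20 to 9.81 (median 8.77), and was higher by 1.03 (SE 0.07, adjusted p = 5.09e-20). Both had their highest mean in the anterior spinal cord. For *Kcnj10* it was 12.07, level with the mammillary body and the cerebellar nucleus (each 12.04). Both genes were lower in the striatum, by -1.05 and -1.14, and in the hippocampus, by -0.94 and -0.89. The 2 genes correlated over regions (r = 0.84). *Kcnj10* and *Kcnj16* correlated with the astrocyte markers at 0.74 and 0.72, and with the oligodendrocyte markers at 0.62 and 0.45. Of the 12 astrocyte markers, 10 were higher in the spinal cord (median 0.49), 9 lower in the striatum (median -0.55) and 10 lower in the hippocampus (median -0.45). Regional means of that list ran from 0.60 to 0.73 in the spinal cord and from -0.68 to -0.12 in the striatum, against -0.75 to 0.90 over all regions. All 11 measured oligodendrocyte markers were higher in the spinal cord (median 1.93) and lower in the hippocampus (median -0.43). In the striatum 9 of them were lower (median -0.61). The part of both lists in the *Kcnj10* and *Kcnj16* results was not tested.

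The remaining inward rectifiers varied little. *Kcnj8* (range 0.57) and *Kcnj11* (range 0.52) encode the pores of channels closed by ATP. *Kcnj15* (range 0.46) and *Kcnj1* (range 0.48) stayed below 7.

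Of the 12 leak channel genes, 4 were higher and 5 lower in the cerebellar cortex (all genes: 24.6% and 40.6%). *Kcnk10*, a channel opened by stretch and lipids, read 9.34 and 9.28 in the vermis and 9.33 and 9.43 in the lobe, against 7.01 to 8.24 elsewhere (median 7.71), a 3.09-fold higher level (difference 1.63, SE 0.06, adjusted p = 1.59e-31). *Kcnk3*, an acid-sensitive channel, read 9.46, 9.33, 9.46 and 9.52, against 7.06 to 8.87 (median 7.88; difference 1.57, SE 0.07, adjusted p = 6.56e-27). *Kcnk1*, a weakly rectifying channel, read 11.52, 11.48, 11.67 and 11.46, against 8.48 to 11.04 (median 10.08; difference 1.45, SE 0.06, adjusted p = 9.07e-30). In all 3 genes the cerebellar cortex did not overlap with any other region. A second probe set of *Kcnk10* and both others of *Kcnk3* had their maximum in the cerebellar cortex too.

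*Kcnk12* was highest there as well (8.68, 8.84, 8.80 and 8.86, against 6.90 to 8.79; difference 1.10), overlapping at the edge. A further pair of genes lay wholly below the others there, *Kcnk6* (6.61 to 6.73, against 6.80 to 7.78; difference -0.55, SE 0.05, adjusted p = 5.13e-13) and the sperm channel gene *Kcnu1*. In all, 5 of the 82 genes had every cerebellar cortex array beyond all other arrays, against 4.0% of all genes. Microglial markers were lower in the cerebellar cortex for all 10 genes of the list, with a median of -0.90 and regional means from -0.89 to -0.88 against at least -0.48 elsewhere, and *Kcnk6* correlated with that list over the 48 regions (r = 0.70). The part of these markers in the *Kcnk6* result was not tested.

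*Kcnk2*, related to *Kcnk10*, was lower in the cerebellar cortex by -1.52 (SE 0.08, adjusted p = 5.42e-23). It read 12.16 and 11.93 in CPu lateral, its highest region, against 7.38 to 11.62 elsewhere (median 9.95), and was 3.51-fold higher over the striatum (10.81 to 12.16, difference 1.81, SE 0.07, adjusted p = 2.09e-30). CA1, at 11.54 and 11.62, came next. In the thalamus it ran from 7.38 to 9.69 (median 7.95) and was lower by -1.69 (SE 0.05, adjusted p = 3.11e-35), whereas in the hypothalamus it was higher by 0.97 (9.37 to 11.38, SE 0.04).

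*Kcnk4*, the third channel of that group, was instead highest in VA/VL (range 1.52) and higher over the thalamus by 0.60. *Kcnk13* was highest in the anterior spinal cord (8.82 and 8.94, range 1.34). It correlated with the oligodendrocyte markers at 0.64, the endothelial at 0.54, the astrocyte at 0.49, the microglial at 0.46 and the mural at 0.42. *Kcnk15* was highest in the posterior olfactory bulb (range 1.52). *Kcnk5* (range 0.96, highest in SO and below 7) correlated with the mural cell markers at 0.73, the leptomeningeal at 0.66 and the endothelial at 0.62. Its mean was 6.85 in SO and 6.29 in the next region. SO was also the highest region of these lists, at 1.25, 2.62 and 1.14. How far the correlations rest on SO was not tested. *Kcnk7* (range 0.49) and *Kcnk16* (range 0.52) were flat. No Kcnk gene was higher in the mesencephalon, and 3 of 12 were lower (all genes: 22.2% and 16.8%).

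Of the non-coding transcripts, *Kcnq1ot1*, the antisense transcript of the imprinted *Kcnq1* locus, had a range of 0.98, and its 6 probe sets did not give the same regional pattern (r from 0.19 to 0.58 with the one used). *Kcnmb4os2* (range 1.08) correlated with *Kcnmb4* at 0.82. It lies on the opposite strand of that locus, and whether its probes read only 1 strand was not tested. *Kcnmb4os1* stayed below 7 (range 0.55).

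Among the 62 genes with a range over 1 and a highest mean of at least 7, the regional patterns most alike were those of *Kcnh3* and *Kcnj4* (r = 0.92 over 48 regional means). *Kcnj4* was also like *Kcnq5* (0.82) and *Kcnip2* (0.81), genes that were high in the striatum. *Kcnab2* and *Kcnn1* followed with 0.84, and *Kcna2* and *Kcnab3*, a pore and a beta subunit of the same channels, with 0.79. *Kcna5* and *Kcnn2* were opposed (r = -0.75). These values share the arrays and describe 48 regions, which are not independent replicates.

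Genes whose proteins bind or anchor potassium channels were taken as a list of 21, of which 20 were measured. They were split in the same groups as follows, with the shares of all genes higher and lower in brackets. In the cerebral cortex 9 were higher and 4 lower (19.9% and 27.8%), and in the striatum 7 and 7 (22.2% and 30.1%). The hippocampus had 6 and 11 (20.2% and 30.1%), the thalamus 8 and 5 (21.0% and 26.9%) and the hypothalamus 4 and 13 (33.0% and 30.5%). The mesencephalon had 7 and 5 (22.2% and 16.8%), the cerebellar cortex 12 and 7 (24.6% and 40.6%) and the spinal cord 6 and 6 (22.5% and 21.5%). *Amigo2*, an adhesion protein, had the widest range (4.18), was highest in Hb (10.39 and 9.85) and was higher over the hypothalamus by 1.33. *Dpp10*, which joins the Kcnd and Kcnip complex, was lower in the hippocampus by -1.59, and its relative *Dpp6* was highest in Hb. The scaffolds *Dlg2* and *Dlg4* were both higher in the striatum, each by 1.16. *Cntnap2*, which holds Kcna channels beside the node of Ranvier, was lower in the cerebellar cortex by -1.20, and *Cntn2*, its binding partner, was higher in the spinal cord by 0.88.

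For the 46 genes with several probe sets, 83 further probe sets could be compared. Over 48 regions their correlation with the one used had a median of 0.84, with 45 above 0.8 and 12 below 0.3. Where the further probe set had a highest mean of at least 7, the median was 0.91 and 4 of 60 were below 0.3. The highest region was the same for 27 of the 83.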

How the data were processed

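The deposited values are log2 expression values that the authors obtained by RMA (version not given in the sources used here), 1 column per array. They ran from 3.88 to 14.87, with array medians from 7.32 to 7.46. Gene symbols came from the platform annotation, in which 34945 of the 45037 probe sets without the 64 controls name 1 gene. No counts underlie array values, whose precision is limited by how many arrays there are.

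A linear model with 1 coefficient per region was fitted with limma 3.58.1 in R 4.3.3 to the 96 arrays of 48 regions (48 residual and 6.63 prior degrees of freedom, median residual SD 0.119). Contrasts set a region against the mean of the remaining 47 and a group against that of all regions outside it; p-values were adjusted by Benjamini-Hochberg across the 45037 probe sets and called at 0.05. For counts over all genes, each gene had the probe set with the highest mean. Retina, pituitary and pineal were left out of these tests. The model was tested on simulated data. Because p-values rest on 2 pools per region, they measure the spread between pools.

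Genes with full statistics were, per subfamily, the 2 with the widest range; the 20 with the largest difference of 1 region whose 2 arrays both passed those of 45 or more of the others; the 5 largest differences in each direction per group; and the 5 flattest of those reaching a regional mean of 7. A few others are named with their values, chosen after these were seen. The genes, groups and lists were chosen with earlier results of these data known. Cell marker lists (oligodendrocyte, astrocyte, microglia, endothelial, mural, leptomeningeal, choroid plexus, ependymal, neuron) are described by counts, and a list's regional mean is relative to its mean over the 48 regions. Promoters were taken from RefSeq (GRCm38.p6). Tables and figures were made with Python 3.11.15, numpy 2.4.6, pandas 2.3.3 and matplotlib 3.10.9.

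The alternatives were a replicate block, cyclic loess, a variance trend with robust estimation, a minimum regional mean of 7, the mean of all probe sets of a gene, comparison within the sampling period, leaving out each array, and leaving out 4 hypothalamic regions.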

Additional observations from a re-analysis of the deposited data

Results flagged for a closer look

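A few potassium channel genes had a level in retina, pituitary or pineal, which entered no comparison, that exceeded by more than 0.5 the highest of the 96 arrays of the other 48 regions. *Kcnj8*, the pore of a channel closed by ATP and a gene of mural cells, had a mean of 9.06 in the retina (9.06 and 9.07), against at most 7.27 on the 96 arrays. *Kcnk6* had a mean of 9.16 in the retina (9.20 and 9.12), against at most 7.78. *Kcnmb2*, a beta subunit of the BK channel, had a mean of 9.28 in the pituitary (9.23 and 9.32), against at most 8.60. *Kcnj14* had a mean of 9.75 in the pineal (9.72 and 9.78), against at most 8.37, which was reached in the anterior spinal cord. Above all 96 arrays by any margin were 5 of the 82 genes in the retina, 4 in the pituitary and 2 in the pineal. These differences were not tested.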

How the results depend on the processing

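The 17 counts of genes called moved by less than 1.5 times under every alternative run (117 values). With a replicate block they equalled those without it: 80 genes in the F test, and in the hypothalamus 13 higher and 46 lower. Over 1128 pairs of regions the deviations of same-numbered arrays correlated at a mean of 0.0085 (from -0.57 to 0.53). Of these pairs, 282 were above 0.1 and 234 below -0.1. The replicate numbers thus gave no pairing common to all regions. A mean near 0 cannot show that arrays are independent, because correlations of opposite sign cancel. Deviations shared by some of the regions are not in the model. Leaving out each array gave 79 to 81 genes in the F test, and for higher and lower genes 39 to 42 and 12 to 14 in the cerebral cortex, 24 to 27 and 27 to 30 in the striatum, 29 to 31 and 25 to 28 in the hippocampus, 38 to 39 and 18 to 20 in the thalamus, 12 to 14 and 45 to 49 in the hypothalamus, 20 to 22 and 27 to 32 in the mesencephalon, 25 to 27 and 36 to 44 in the cerebellar cortex, and 23 to 26 and 22 to 28 in the spinal cord. Without DM, VMH, LH and SPa dorsal, an alternative chosen after seeing the data, the hypothalamus had 14 higher and 48 lower. Of 142 results for named genes, with 888 alternative values, 885 kept direction and side of the threshold. The 3 exceptions were all *Kcne1* in the F test, with adjusted p = 0.0569 under a variance trend, 0.757 after cyclic loess and 0.188 for the mean of its probe sets; the cause was not tested. Using the mean of all probe sets of a gene moved 15 named differences by over 1.5 times, all towards 0, and comparison within the sampling period moved 1 (*Kcnip2* in the mesencephalon, -0.38). Those not given above were *Kcnip1* in the cerebral cortex (-0.44 from -0.88) and *Kcnj9* in the striatum (-0.52 from -1.07). Cyclic loess moved the median difference over all probe sets by less than 0.1 in every group, from -0.07 to -0.02 in the cerebellar cortex.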
